A study of Mus musculus with 12 samples.

Results

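The interferon regulatory factors (IRFs) were followed by 8 genes, Irf1 to Irf5 and Irf7 to Irf9, found by gene symbol. They are 8 of 48663 gene rows in the deposited count table and 8 of the 26629 rows of the authors' FPM table, whose unit is CPM, the share of a library's gene counts that a gene holds, on one fixed scale for all libraries. All 8 genes had reads in all 12 libraries, from 8 reads for Irf4 to 10136 for Irf1.

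RNA was sequenced from sorted C57BL/6 mouse T cells in 4 groups of 3 libraries. Every group carries floxed alleles of Lrf (Zbtb7a), a zinc finger repressor that acts in lymphocyte development, and the groups differ in the Cd4 Cre transgene, which deletes floxed DNA from the double-positive thymocyte stage on. Control IELp (Cd4 Cre- lrf fl/fl) and KO IELp (Cd4 Cre+ lrf fl/fl) are thymic precursors of intraepithelial lymphocytes (IEL), sorted as TCRb+ cells without CD4 or CD8a that were CD5 high, CD122+, H-2Kb+, CD44- and PD-1 high. Control CD8αα IEL (Cd4 Cre- lrf fl/fl) and KO CD8αα splenocytes (Cd4 Cre+ lrf fl/fl) were both sorted as CD45+ TCRb+ CD4- CD8a+ CD8b- cells. The KO CD8αα cells came from spleen and the control CD8αα cells were IEL, so genotype and tissue cannot be told apart in any comparison between them. Within each genotype, precursors and CD8αα cells differ in stage, tissue and sort gate together. A rise or fall from precursor to CD8αα cells below is thus a difference between these samples, in which the 3 cannot be told apart. The design text gives 40000 sorted cells, the sources used here give no ages of the mice, and nothing states that replicates came from separate mice, so p-values measure the spread between these samples, which may be technical. The labels name no sequencing batch. The sample numbers of the precursor libraries and of the CD8αα libraries form separate runs, so a round of processing, if there was one, cannot be told apart from stage.

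IRFs bind DNA through a shared N-terminal domain that reads GAAA repeats, the core of the interferon-stimulated response element (ISRE). IRF3, IRF5 and IRF7 wait in the cytoplasm until kinases downstream of nucleic acid sensors and Toll-like receptors phosphorylate them, and then switch on type I interferon and inflammatory genes. IRF9 joins STAT proteins in ISGF3, the complex that carries the type I interferon signal to ISREs, while IRF1 is made on interferon-gamma signalling and drives antigen-presentation genes, and IRF2 binds the same sites and can oppose it. IRF4 is induced by antigen receptor signals and works with BATF and JUN proteins in T cells, and IRF8 is best known from myeloid cells and B cells. In the CD8αα IEL lineage IRF1 is known for its need in the supply of interleukin 15, on which these cells depend.

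Reads counted to genes ranged from 13432598 to 19947734 per library. Zbtb7a itself lay between 68.5 and 80.7 CPM in control IELp and between 42 and 50.8 in KO IELp, and between 101 and 119 CPM in control CD8αα IEL and 59.1 and 63.4 in KO CD8αα splenocytes; the libraries labelled KO were lower without overlap, and which exons the remaining reads fall in was not analysed here. Cd8a was at 2508 ± 158 CPM in control CD8αα IEL and 838 ± 48.7 in KO CD8αα splenocytes (SD, n = 3), with Cd8b1 at 0.278 ± 0.250 and 3.54 ± 0.959 CPM. Pdcd1 was at 1507 ± 70.3 CPM in control IELp and 1549 ± 70.7 in KO IELp. Markers of other cells differed between the CD8αα groups. The 7 B cell markers summed to 34.5 to 61.3 CPM in control CD8αα IEL, nearly all Cd79b, with Ms4a1, Pax5 and Ebf1 at 0, and to 89.3 to 111 CPM in KO CD8αα splenocytes, with Ms4a1 at 12.6 ± 0.973. The 7 gut epithelium markers summed to 499 to 641 CPM in control CD8αα IEL, of which Cdh1 gave 397 ± 26.5 and Epcam 146 ± 37.3, and to 9.60 to 14.6 in KO CD8αα splenocytes. Epcam was also at 62.0 ± 4.72 CPM in control IELp. Krt8 was at 1.35, 1.54 and 22.6 CPM in control CD8αα IEL and Cldn7 at 0.492, 0.193 and 5.27, so both were highest in replicate 3. In these bulk samples fewer expressing cells and less RNA per cell cannot be told apart.

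Levels of different IRF genes can be compared only per length, here as CPM per kilobase of annotated exon. Irf1 was the highest and Irf4 the lowest in all 4 groups. In control IELp, Irf1 was at 48.9 ± 6.64 CPM per kb, followed by Irf3 at 26.1 ± 1.71 and Irf7 at 23.9 ± 2.33, whose libraries overlapped. Irf9 followed at 18.3 ± 1.33, then Irf2 at 12.5 ± 1.28 and Irf5 at 11.7 ± 1.59, which overlapped, then Irf8 at 5.45 ± 0.278 and Irf4 at 1.07 ± 0.345. KO IELp had Irf1 at 41.5 ± 1.33 and Irf3 at 26.8 ± 2.37, then Irf7 at 15.8 ± 0.785 and Irf9 at 15.6 ± 0.544, which overlapped each other. Irf5 at 14.2 ± 0.730 and Irf2 at 13.5 ± 0.456 overlapped as well, above Irf8 at 4.22 ± 0.553 and Irf4 at 0.315 ± 0.121.

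Irf8 changed its place in the order most. It stood second in control CD8αα IEL, at 35.2 ± 3.02 CPM per kb, overlapping Irf7 at 33.6 ± 0.101 and behind Irf1 at 121 ± 1.67. Below them came Irf3 at 24.1 ± 0.884, Irf2 at 19.4 ± 0.656 and Irf9 at 19.2 ± 1.01, the last pair overlapping, then Irf5 at 10.8 ± 0.578 and Irf4 at 0.461 ± 0.161. KO CD8αα splenocytes had Irf1 at 126 ± 4.99 and Irf7 at 34.1 ± 0.627, followed by Irf3 at 25.3 ± 2.68 and Irf9 at 25.2 ± 1.85, which overlapped, Irf8 at 21.3 ± 1.31 and Irf5 at 18.5 ± 1.99, which overlapped, Irf2 at 15.4 ± 0.381 and Irf4 at 0.340 ± 0.366. With the longest transcript as the length, only 3 of the 8 genes kept their place in KO CD8αα splenocytes, where Irf8 moved to the second place, against 8 in control IELp and 6 in each of the other groups.

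**Figure D1:**
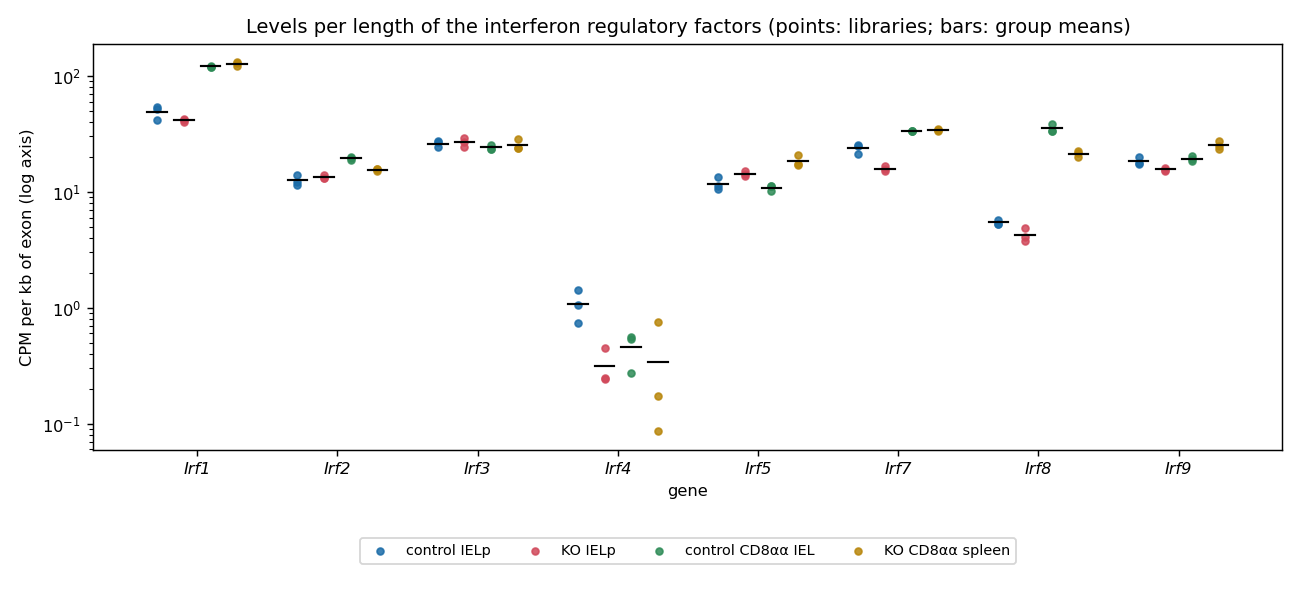
Level per length of each interferon regulatory factor (CPM per kb of exon, log axis) in the 4 groups; points are the 3 libraries of a group and bars are group means. Irf1 is highest and Irf4 lowest in every group, and Irf8 goes from 5.45 in control IELp to 35.2 in control CD8αα IEL.

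The 8 genes together came to 148 ± 10.9 CPM per kb in control IELp, 132 ± 3.51 in KO IELp, 264 ± 4.63 in control CD8αα IEL and 267 ± 0.0212 in KO CD8αα splenocytes. The last SD is far below that of single members there (4.99 for Irf1 and 2.68 for Irf3), whose differences between libraries offset each other in the sum. It is thus no measure of how closely these replicates agree. Irf1 made up 33.0% ± 2.14 of that sum in control IELp and 31.4% ± 0.810 in KO IELp, against 45.8% ± 0.235 in control CD8αα IEL and 47.4% ± 1.87 in KO CD8αα splenocytes. Irf8 made up 3.69% ± 0.231 and 3.20% ± 0.432 in the precursor groups, 13.4% ± 0.927 in control CD8αα IEL and 8.0% ± 0.490 in KO CD8αα splenocytes.

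Fold changes below are fitted log2 values from edgeR's quasi-likelihood test on counts scaled with TMM factors, which set the bulk of genes level between libraries, with p-values adjusted over all genes tested and a threshold of 0.05. In KO against control IELp, 3 of the 8 genes fell, Irf4, Irf7 and Irf8, and none rose, where 13.1% of all genes tested were called, 6.48% higher and 6.58% lower. In 5 of the 8 (Irf4, Irf5, Irf7, Irf8 and Irf9) the CPM of the groups did not overlap, as in 29.7% of all genes. At an unadjusted p under 0.05, Irf1 and Irf9 were lower besides these 3, and 1 of the 8 was higher, Irf5. DESeq2 called 3 of the 8 lower and none higher. The median log2 fold change of the 8 was -0.21, beside -0.01 over all genes. From control IELp to control CD8αα IEL, 5 rose (Irf1, Irf2, Irf7, Irf8 and Irf9) and Irf4 fell, where 64.8% of all genes were called, 31.9% higher and 32.9% lower. Groups did not overlap for 5 of the 8, as for 70.9% of all genes, and the median of the 8 was 0.51, beside -0.01 over all genes. From KO IELp to KO CD8αα splenocytes, 6 rose and none fell, with 45% of all genes called and 22.6% called higher, and a median of 0.65 beside 0.00 over all genes. None of the 8 had a fitted value below 0 there. Irf3 and Irf4 did not pass there, and the other 6 were the ones without overlap, as were 56.4% of all genes. Between the CD8αα groups, Irf5 and Irf9 were higher in KO splenocytes and Irf2 and Irf8 lower, with 58.2% of all genes called, 29.1% higher and 29.2% lower, and a median of -0.08 beside 0.00 over all genes. These 4 did not overlap between the groups, as was so for 66.2% of all genes. The shares are high, so a call in any of the last 3 comparisons is common among all genes.

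The scaling moves the comparisons across stage and tissue. With total gene counts in place of TMM factors the median of all genes shifted by -0.23 in control CD8αα IEL against control IELp, by 0.12 in KO CD8αα splenocytes against control CD8αα IEL and by -0.11 in KO CD8αα splenocytes against KO IELp. The share of calls that were higher went from 49.2% to 34.4%, from 49.9% to 59.5% and from 50.3% to 35.9%. Among the 8 genes the sign turned for Irf3 and Irf5 in control CD8αα IEL against control IELp for Irf1, Irf3 and Irf7 in KO CD8αα splenocytes against control CD8αα IEL, and for Irf3 in KO CD8αα splenocytes against KO IELp (0.03 to -0.09), and none of these passed the test under either scaling.

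**Figure D2:**
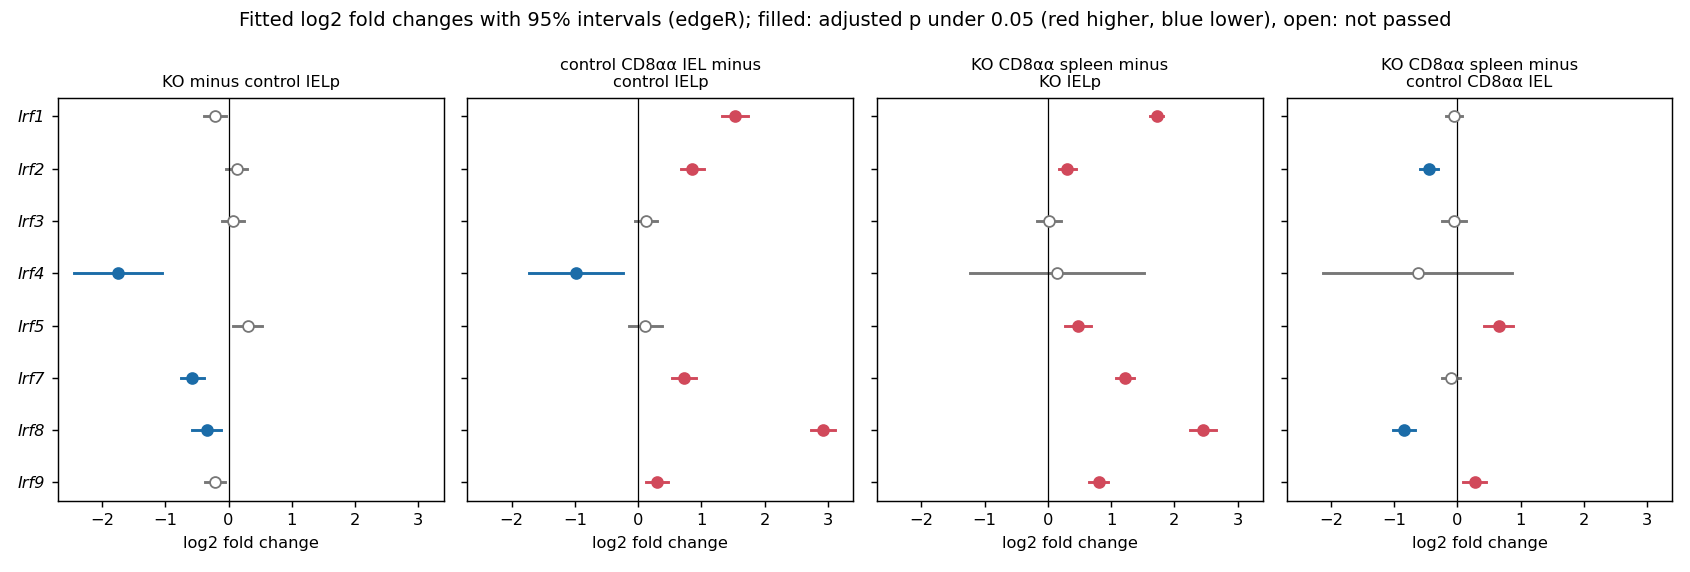
Fitted log2 fold change of each gene in the 4 comparisons of groups, with 95% intervals from edgeR; filled symbols passed the adjusted threshold of 0.05 and open ones did not. Irf8 has the highest value in both comparisons of CD8αα cells with precursors (2.92 and 2.45), and Irf4 the lowest in KO against control IELp (-1.75).

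Irf1 (chr11:53770014-53778374, plus strand, mm10), the interferon-gamma-induced activator of antigen-presentation genes, separated precursors from CD8αα cells. It was at 206, 213 and 164 CPM in control IELp and at 170, 160 and 165 in KO IELp. It was at 478, 475 and 488 CPM in control CD8αα IEL and at 508, 519 and 480 in KO CD8αα splenocytes. All 6 CD8αα libraries lay above all 6 precursor libraries, as they did for Irf2, Irf7 and Irf8. The share of all genes with such a separation was not counted. For Irf1 the groups of each stage overlapped. The rise was 2.90-fold in the control arm (log2 1.53, SE 0.09, edgeR adjusted p = 1.08e-07) and 3.29-fold in the KO arm (log2 1.72, SE 0.05, edgeR adjusted p = 1.66e-11). KO IELp did not differ from control IELp past the threshold (log2 -0.22, 95% interval -0.39 to -0.04, edgeR adjusted p = 0.102), although without control IELp replicate 3, the lowest of its group, the value was -0.32 with an adjusted p of 0.00186, and with no filter on low counts it was -0.21 with an adjusted p of 0.0244. Between the CD8αα groups the log2 difference was -0.05 with a 95% interval from -0.18 to 0.07 (edgeR adjusted p = 0.414). Irf1 shares 135 exon bases, 3.4% of its exons, with Gm17334 on the other strand, and whether the counting used strand is not given in the sources used here.

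Irf2 (chr8:46739732-46847458, plus strand), which binds the same elements as IRF1, was highest in control CD8αα IEL. It was at 85.2, 103 and 89.4 CPM in control IELp and at 97.6, 104 and 98.0 in KO IELp. CD8αα cells had 144, 138 and 147 CPM in control IEL and 115, 116 and 111 in KO splenocytes. The precursor groups overlapped, the KO CD8αα splenocytes lay above both, and the control CD8αα IEL above all other libraries. The rise was 1.81-fold in the control arm (log2 0.86, SE 0.08, edgeR adjusted p = 6.22e-06) and 1.24-fold in the KO arm (log2 0.31, SE 0.06, edgeR adjusted p = 0.00118). KO CD8αα splenocytes were 1.36-fold below control CD8αα IEL (log2 -0.45, SE 0.06, edgeR adjusted p = 2.06e-04). The ratio of Irf1 to Irf2 per length was 3.92 ± 0.543 in control IELp and 3.08 ± 0.194 in KO IELp, 6.24 ± 0.146 in control CD8αα IEL and 8.18 ± 0.124 in KO CD8αα splenocytes, so the ratio was higher in every CD8αα library than in any precursor library.

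**Figure D3:**
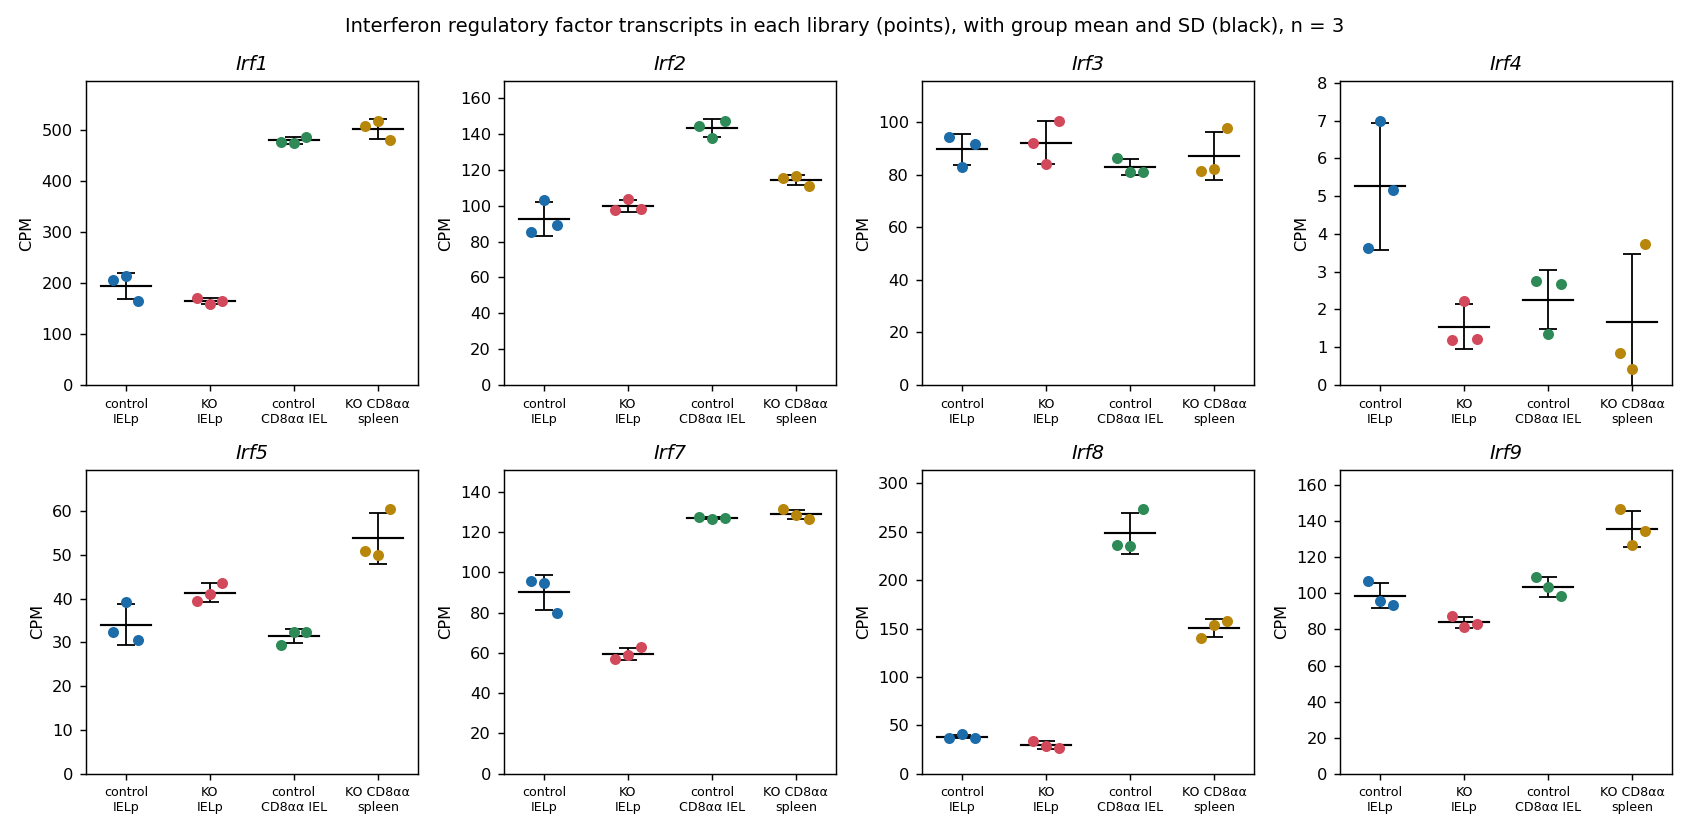
CPM of the 8 genes in each library (points, linear axes from 0), with the group mean and SD in black; the lower SD bar of Irf4 in KO CD8αα splenocytes runs below 0 and is not drawn there. Irf1, Irf2, Irf7 and Irf8 separate the CD8αα groups from the precursors, Irf7 is lowest in KO IELp (57 to 62.9 CPM), and Irf4 stays at or under 7.0 CPM throughout.

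Among the factors activated by phosphorylation, Irf3 (chr7:44997648-45002848, plus strand) was the steadiest, with group means within 1.11-fold of each other. It was at 94.4, 83.1 and 91.6 CPM in control IELp and at 92.0, 84.3 and 101 in KO IELp. It was at 86.5, 81.3 and 81.2 CPM in control CD8αα IEL and at 81.6, 82.1 and 97.8 in KO CD8αα splenocytes. The 4 groups overlapped one another, and no comparison passed. In KO against control IELp the log2 difference was 0.06 with a 95% interval from -0.11 to 0.24 (edgeR adjusted p = 0.686).

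Irf7 (chr7:141262706-141266481, minus strand), itself an interferon-induced gene and the main amplifier of type I interferon production, was the member with the smallest adjusted p in KO against control IELp. It was at 95.7, 94.6 and 79.9 CPM in control IELp and at 57, 59.0 and 62.9 in KO IELp. It was at 127, 127 and 127 CPM in control CD8αα IEL and at 131, 129 and 127 in KO CD8αα splenocytes. All KO IELp libraries lay below all control IELp libraries, and the CD8αα groups overlapped at a higher level. The fall in KO IELp was 1.49-fold (log2 -0.57, SE 0.09, edgeR adjusted p = 4.13e-04), and it kept its call in all 14 alternative fits. The rise to CD8αα cells was 1.65-fold in the control arm (log2 0.73, edgeR adjusted p = 1.97e-05) and 2.33-fold in the KO arm (log2 1.22, edgeR adjusted p = 7.69e-09). The CD8αα groups differed by a log2 value of -0.10, with a 95% interval from -0.24 to 0.04 (edgeR adjusted p = 0.193).

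Irf5 (chr6:29526625-29541871, plus strand), an activator of inflammatory cytokine genes downstream of MYD88, was highest in KO CD8αα splenocytes. It was at 32.4, 39.3 and 30.5 CPM in control IELp and at 39.5, 41.0 and 43.7 in KO IELp. CD8αα cells had 29.5, 32.4 and 32.4 CPM in control IEL and 50.9, 49.9 and 60.4 in KO splenocytes. The KO IELp libraries lay just above the control IELp libraries, and the KO CD8αα splenocytes above all others. KO CD8αα splenocytes were 1.57-fold above control CD8αα IEL (log2 0.65, SE 0.10, edgeR adjusted p = 3.70e-04) and 1.40-fold above KO IELp (log2 0.48, SE 0.09, edgeR adjusted p = 9.87e-04). KO against control IELp missed the threshold (log2 0.30, 95% interval 0.07 to 0.53, edgeR adjusted p = 0.0825), and passed with a value of 0.42 and an adjusted p of 0.0317 without control IELp replicate 2, and with 0.31 and an adjusted p of 0.0462 with no filter on low counts. Irf5 is a gene of B cells and macrophages as well. The summed B cell markers were higher in KO CD8αα splenocytes as well, as given above, and the 6 macrophage markers summed to 48.7 to 52.7 CPM in control CD8αα IEL and 41.6 to 64.7 in KO CD8αα splenocytes, with Adgre1, Cd14 and C1qa at 0 in the former and Adgre1 at 2.48 ± 1.00 CPM in the latter. Of 5 macrophage markers tested, edgeR called 4 higher in KO CD8αα splenocytes, Adgre1, C1qa, Csf1r and Lyz2, and Itgam lower. Itgam was at 29.3 CPM in control CD8αα IEL and 0.678 in KO CD8αα splenocytes, and Lyz2 at 0.0724 and 12.3. The part of B cells and macrophages in the Irf5 level was not tested. Irf5 shares 411 exon bases, 14.2% of its exons, with Tnpo3 on the other strand, which was at 172, 167, 170 and 161 CPM on average in control IELp, KO IELp, control CD8αα IEL and KO CD8αα splenocytes, so without strand the reads of the shared bases cannot be assigned. Smaller stretches of exon are shared by Irf3 with Bcl2l12 (88 bases) and by Irf7 with Phrf1 (45 bases), both on the other strand, and by Irf9 with Rnf31 (123 bases) on the same strand.

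Irf9 (chr14:55603571-55610030, plus strand), the DNA-binding subunit of ISGF3, was lowest in KO IELp and highest in KO CD8αα splenocytes. It was at 107, 95.9 and 93.5 CPM in control IELp and at 87.2, 81.5 and 83.1 in KO IELp. Control CD8αα IEL had 109, 103 and 98.4 CPM, and KO CD8αα splenocytes 147, 127 and 135. The KO IELp libraries lay below the control IELp libraries, yet the difference missed the threshold (log2 -0.21, 95% interval -0.37 to -0.05, edgeR adjusted p = 0.0779). In the KO arm Irf9 rose 1.75-fold (log2 0.81, SE 0.07, edgeR adjusted p = 7.03e-07). In the control arm the groups overlapped in CPM, and the fitted rise of 0.30 (edgeR adjusted p = 0.00726) became 0.07 with an adjusted p of 0.472 on total gene counts and 0.07 in limma at both pseudocounts (adjusted p = 0.452 and 0.447). KO CD8αα splenocytes were 1.21-fold above control CD8αα IEL (log2 0.27, SE 0.08, edgeR adjusted p = 0.0139), a call that was lost without KO CD8αα splenocyte replicate 1 (log2 0.21, adjusted p = 0.0639).

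Of the 2 lymphoid members, Irf8 (chr8:120736358-120756694, plus strand) had the widest change of the family. It was at 37.3, 40.7 and 37.3 CPM in control IELp and at 34.1, 28.9 and 26.4 in KO IELp. Control CD8αα IEL had 237, 236 and 273 CPM, and KO CD8αα splenocytes 140, 153 and 158. No group overlapped another. The rise was 7.58-fold in the control arm (log2 2.92, SE 0.09, edgeR adjusted p = 4.87e-10) and 5.47-fold in the KO arm (log2 2.45, SE 0.09, edgeR adjusted p = 2.15e-10), and KO CD8αα splenocytes were 1.8-fold below control CD8αα IEL (log2 -0.85, SE 0.08, edgeR adjusted p = 8.23e-06). The fall in KO IELp was 1.27-fold and close to the threshold (log2 -0.35, SE 0.11, edgeR adjusted p = 0.0469). That call was lost without control IELp replicate 1, 2 or 3 and without KO IELp replicate 2 or 3, with values from -0.27 to -0.37 and adjusted p from 0.0587 to 0.204, and under the replicate block (adjusted p = 0.0667).

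IRF8 also marks B cells, macrophages and dendritic cells, and markers of these cells moved with it in part. In control CD8αα IEL, where Irf8 was highest, Itgam was at 29.3 ± 0.929 CPM, beside 0.631 ± 0.688 in control IELp and 0.678 ± 0.0720 in KO CD8αα splenocytes (SD, n = 3). Itgax, which activated T cells also make, was at 305 ± 66.0 CPM there, 0.425 ± 0.305 in control IELp and 19.4 ± 0.846 in KO CD8αα splenocytes. Cd79b was at 44.5 ± 14.5 CPM in control CD8αα IEL, 19.8 ± 1.45 in control IELp and 63.8 ± 5.52 in KO CD8αα splenocytes, and Csf1r at 21.2 ± 1.67, 20.01 ± 2.53 and 37.0 ± 2.26. Itgam and Itgax thus had their highest group mean where Irf8 did, and Cd79b and Csf1r did not. The 6 macrophage markers summed to 18.0 to 23.8 CPM in control IELp and 48.7 to 52.7 in control CD8αα IEL, and the 6 dendritic cell markers to 4.88 to 8.12 and 232 to 348. The first sum rose through Itgam and the second through Itgax. The dendritic cell gene Zbtb46 was at 3.64 ± 2.03 CPM in control IELp and 1.62 ± 0.292 in control CD8αα IEL, and Xcr1 at 2.82 ± 0.304 and 2.71 ± 0.328. The B cell genes Ms4a1, Pax5 and Ebf1, the macrophage genes Adgre1, Cd14 and C1qa and the dendritic cell genes Flt3, Clec9a and Siglech had no count in any control CD8αα IEL library. A count of 0 allows up to 3 counts, or 0.150 to 0.223 CPM over the depths of all 12 libraries. In KO CD8αα splenocytes Ms4a1 was at 12.6 ± 0.973 CPM and Lyz2 at 12.3 ± 8.32. The part of other cells in the Irf8 level was not tested.

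Irf4 (chr13:30749226-30766976, plus strand), the antigen-receptor-induced member, was near the bottom of the count range. It had 53, 119 and 70 reads in control IELp, or 3.62, 7.0 and 5.16 CPM, and 18, 37 and 23 reads in KO IELp, or 1.19, 2.23 and 1.21 CPM. Control CD8αα IEL had 2.76, 1.35 and 2.66 CPM, and KO CD8αα splenocytes 0.852, 0.424 and 3.72. Control IELp lay above KO IELp and control CD8αα IEL without overlap, while KO CD8αα splenocytes spread across the others, with replicate 3 apart. The fall in KO IELp was 3.36-fold (log2 -1.75, SE 0.32, edgeR adjusted p = 0.00209). It kept its call without each library in turn and missed the threshold in a single fit of all 12 libraries (adjusted p = 0.0605). The fall in control CD8αα IEL against control IELp was 1.98-fold (log2 -0.98, SE 0.34, edgeR adjusted p = 0.0250). It was lost in that single fit (adjusted p = 0.124) and without control IELp replicate 2 or 3 or control CD8αα IEL replicate 2 (adjusted p = 0.129, 0.0578 and 0.0858). The difference between KO CD8αα splenocytes and control CD8αα IEL missed the threshold (log2 -0.63, 95% interval -2.12 to 0.86, edgeR adjusted p = 0.444), and without KO CD8αα splenocyte replicate 3 the value was -1.91 with an adjusted p of 0.0152.

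The step from precursor to CD8αα cell was then compared between the arms, with 12 libraries in 1 edgeR fit and 46.7% of all genes called. Tissue differs between the arms together with genotype. Irf7 and Irf9 rose more in the KO arm, by log2 0.47 (SE 0.10, edgeR adjusted p = 0.00146) and 0.48 (SE 0.11, edgeR adjusted p = 0.00144). Irf2 and Irf8 rose less in the KO arm, by log2 -0.58 (SE 0.10, edgeR adjusted p = 2.62e-04) and -0.50 (SE 0.13, edgeR adjusted p = 0.00540). Irf1 (0.16, adjusted p = 0.238), Irf5 (0.35, adjusted p = 0.0728), Irf3 (-0.12, adjusted p = 0.477) and Irf4 (1.09, adjusted p = 0.279) did not pass in that fit. Irf1 and Irf5 passed without control IELp replicate 3 (0.27, adjusted p = 0.0100, and 0.42, adjusted p = 0.0401) and on total gene counts (0.30, adjusted p = 0.0288, and 0.49, adjusted p = 0.0151), and both passed in limma too. Total gene counts turned the sign of Irf3 (0.03, adjusted p = 0.889), and moved the median of all genes in this comparison by 0.14 and the higher share of calls from 51.8% to 63.6%.

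Promoter windows of the 8 genes, 250 bases before to 50 after each annotated start, were read from RefSeq on GRCm38.p6, and 11 windows matched. They were searched on both strands for the ISRE core GAAANNGAA, where IRFs bind, and for the palindromic STAT site TTCNNNGAA. Of 32851 windows of this length in the mouse, 8.56% hold the first, 8.30% the second and 1.07% both. Irf2 was the 1 gene with both. The stretches that hold matches are shown for Irf1, Irf2 and Irf8, the 3 genes with a STAT site. These genes rose in both arms, and a link between the letters and the rise was not tested. Capitals mark the matches.
Irf1, chr11:53769904-53769952, plus strand, STAT site 90 bases before the start: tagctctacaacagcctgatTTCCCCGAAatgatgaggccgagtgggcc
Irf2, chr8:46739495-46739549, plus strand, ISRE core 241 and STAT site 224 bases before the start: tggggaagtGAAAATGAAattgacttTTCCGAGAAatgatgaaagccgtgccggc
Irf8, chr8:120736167-120736233, plus strand, STAT sites 171 and 153 bases before the start: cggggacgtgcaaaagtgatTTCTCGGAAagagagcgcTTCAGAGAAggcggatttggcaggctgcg
The other 5 genes had neither set of letters in these windows, among them Irf7 and Irf9, which rose in both arms as well. A match is a description of letters and no evidence of binding, and no match says only that the letters are not in this window.

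The genes on either side of IRFs in the pathway were counted from lists. Over all genes tested in KO against control IELp, 6.48% were called higher and 6.58% lower. In KO against control IELp, 17 of the 23 tested interferon-stimulated genes, which ISGF3 and IRF7 switch on, fell and none rose, with a median log2 fold change of -0.73 beside -0.01 over all genes. Ifit1, an RNA-binding antiviral protein, went from 46.5 to 21.4 CPM on average (log2 -1.10, edgeR adjusted p = 2.42e-04), and Zbp1, a nucleic acid sensor, from 59.3 to 35.4 (log2 -0.73, edgeR adjusted p = 1.34e-04). Of 18 IRF1 and interferon-gamma targets 12 fell and none rose, with a median of -0.36, while Irf1 itself did not pass. Psmb8, a subunit of the immunoproteasome, went from 611 to 435 CPM (log2 -0.47, edgeR adjusted p = 4.52e-05), and Tap2, a peptide transporter, from 254 to 200 (log2 -0.32, edgeR adjusted p = 0.00201). Leaving out each library in turn gave 12 to 16 lower interferon-stimulated genes and 9 to 12 lower IRF1 targets, with none higher. At an unadjusted p under 0.05 none of either list was higher, DESeq2 called none higher, and Gbp3 was the 1 gene of both lists with a fitted value above 0.

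Upstream of IRFs in KO IELp, 4 of 10 receptor, JAK and STAT genes and 3 of 15 sensors, adaptors and kinases were called, beside 13.1% of all genes. Of the first list 2 fell and 2 rose. Ifngr2, a chain of the interferon-gamma receptor (47.6 to 30.7 CPM, log2 -0.61, edgeR adjusted p = 0.00136), fell, and Jak1 and Ifngr1 rose by log2 0.18 and 0.22. The 2 lower calls became 1 without control IELp replicate 1 or 2 or KO IELp replicate 1 or 2, and the 2 higher calls became 1 without control IELp replicate 1 or 2 or any KO IELp replicate. At an unadjusted p under 0.05, 7 of the 15 sensors, adaptors and kinases were lower and 3 higher. Of these 15 the RNA sensor gene Ifih1 (11.7 to 5.24 CPM, log2 -1.14, edgeR adjusted p = 4.77e-04) and the IRF kinase gene Ikbke (180 to 141 CPM, log2 -0.33, edgeR adjusted p = 0.00431) fell, and Tbk1, the other IRF kinase, rose by log2 0.26. Without control IELp replicate 3 there were 5 lower calls in this list, and the 1 higher call was lost without control IELp replicate 1 or 2 or KO IELp replicate 2 or 3. Of 6 tested partners of IRF4 and IRF8, Batf fell (22.7 to 12 CPM, log2 -0.90, edgeR adjusted p = 4.57e-04) and Batf3 rose (0.964 to 3.06 CPM, log2 1.67, edgeR adjusted p = 0.00392). None of 6 IRF-binding regulators passed in edgeR, none had an unadjusted p under 0.05, and no other fit run called one. Of 12 T cell receptor signal genes 4 fell, Icos, Nfkbid, Nfatc1 and Rel, and none rose in edgeR, while 1 was higher at an unadjusted p under 0.05 (Nr4a1) and DESeq2 called 1 higher, with 2 lower calls without control IELp replicate 2 or KO IELp replicate 1 or 3.

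**Figure D4:**
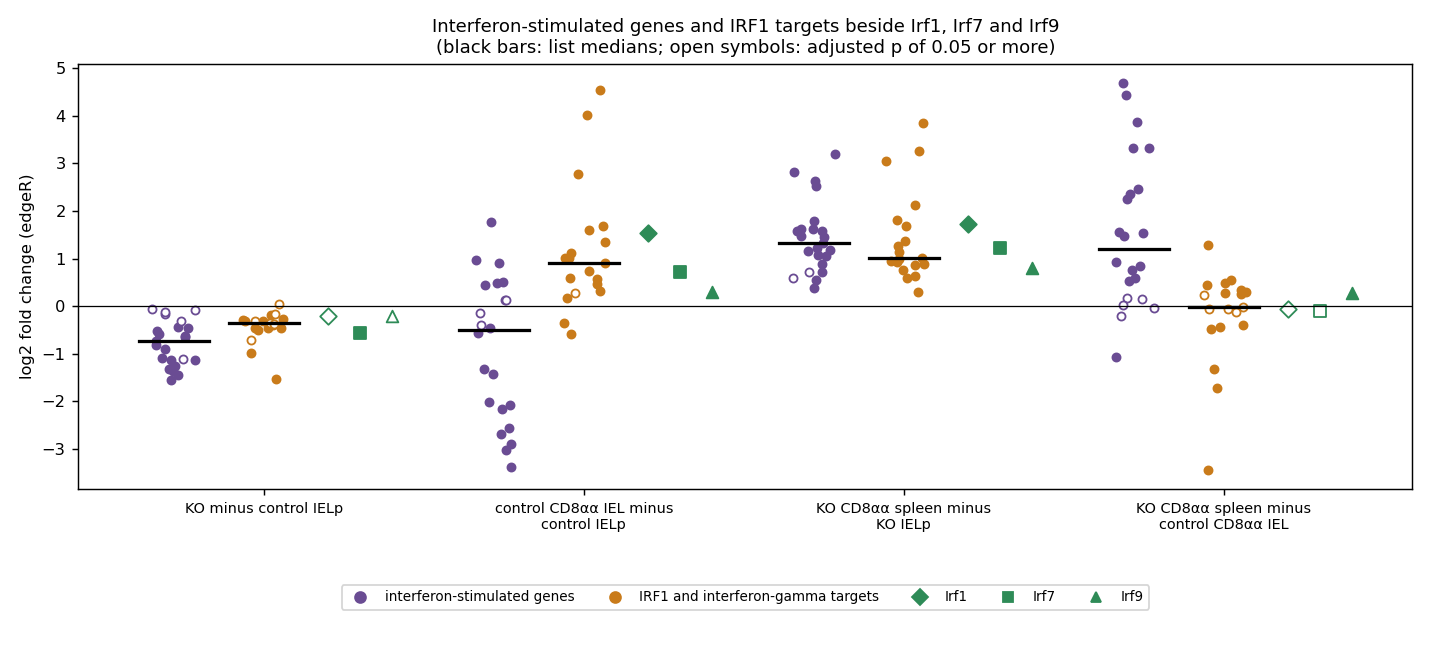
Log2 fold changes of interferon-stimulated genes (purple) and of IRF1 and interferon-gamma targets (orange) in the 4 comparisons, with Irf1, Irf7 and Irf9 in green; filled symbols passed the adjusted threshold and black bars are list medians. In control CD8αα IEL against control IELp the target median (0.91) and the interferon-stimulated median (-0.51) have opposite signs.

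The lists parted between control IELp and control CD8αα IEL, where 31.9% of all genes tested were called higher and 32.9% lower. Of 19 IRF1 and interferon-gamma targets 16 rose and 2 fell, with a median of 0.91, beside the 2.90-fold rise of Irf1. Il15ra, the chain that presents interleukin 15, went from 2.74 to 38.4 CPM (log2 4.02, edgeR adjusted p = 7.56e-09), and the peptide-loading gene Tapbp from 575 to 1067 (log2 1.12, edgeR adjusted p = 2.67e-08). Of 22 interferon-stimulated genes, 6 rose and 12 fell, with a median of -0.51, while Irf7 and Irf9 rose. Usp18, which turns the type I interferon receptor down, went from 27.9 to 3.66 CPM (log2 -2.69, edgeR adjusted p = 3.37e-07). Of the receptor list, 6 genes rose and 3 fell. Ifngr1 went from 279 to 908 CPM, while Ifngr2 went from 47.6 to 1.18 CPM (log2 -5.07, edgeR adjusted p = 6.62e-08). All 6 tested partners of IRF4 and IRF8 rose, among them Junb from 197 to 2377 CPM (log2 3.83, edgeR adjusted p = 6.58e-11) and Batf from 22.7 to 49.7 (log2 1.36, edgeR adjusted p = 2.25e-06), where Irf8 rose and Irf4 fell. Of 12 T cell receptor signal genes 10 fell and 2 rose, Egr2 from 163 to 7.75 CPM (log2 -4.16, edgeR adjusted p = 6.58e-11).

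In the KO arm, from KO IELp to KO CD8αα splenocytes, 21 of 23 interferon-stimulated genes rose and none fell, with a median of 1.33, and all 19 tested IRF1 targets rose, with a median of 1.01. Ifit3 went from 4.26 to 36.8 CPM (log2 3.21, edgeR adjusted p = 9.32e-08) and B2m, the light chain of class I MHC, from 1209.5 to 2896 (log2 1.37, edgeR adjusted p = 8.68e-11). Of 15 sensors, adaptors and kinases 11 rose and none fell, among them Ddx58, an RNA sensor (log2 1.11, edgeR adjusted p = 1.06e-08), with 7 on total gene counts. At an unadjusted p under 0.05, and in DESeq2, 0 genes of these 3 lists were lower. Of 12 T cell receptor signal genes 9 fell and 3 rose. Over all genes tested in this comparison, 22.6% were called higher and 22.4% lower.

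Between KO CD8αα splenocytes and control CD8αα IEL, 16 of 22 interferon-stimulated genes rose and 1 fell, with a median of 1.19 beside 0.00 over all genes, while Irf7 did not pass and Irf9 rose 1.21-fold. Without control CD8αα IEL replicate 3 there were 2 lower calls. Over all genes tested between these groups, 29.1% were called higher and 29.2% lower. Usp18 was at 3.66 CPM in the IEL and 40.3 in the splenocytes (log2 3.33, edgeR adjusted p = 2.34e-08). Of 19 IRF1 targets 8 rose and 6 fell, with a median of -0.02, and the falls included Casp1, from 88.9 to 8.90 CPM (log2 -3.44, edgeR adjusted p = 1.38e-07). Jak1 and Ifnar2 rose (log2 1.05 and 1.55, edgeR adjusted p = 2.96e-08 and 1.53e-07) and Jak2 fell (log2 -0.93, edgeR adjusted p = 4.79e-07). Junb and Jun fell by 4.28 and 3.25 on the log2 scale (edgeR adjusted p = 3.05e-10 and 4.55e-10). Spi1 and Spib, the ETS partners of IRF4 and IRF8 in myeloid and B cells, had no count in control CD8αα IEL and were at 2.80 and 2.16 CPM on average in KO CD8αα splenocytes, beside the B cell and macrophage markers given above, whose part was not tested. In the comparison of the steps, 20 of 24 interferon-stimulated genes rose more in the KO arm and none less, at an unadjusted p under 0.05 and in DESeq2 as well, with a median of 2.45 beside 0.02 over all genes. Over all genes tested there, 24.2% were called higher and 22.5% lower.

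Ifng was the 1 listed interferon gene with any count. Ifnb1, Ifna1, Ifna2, Ifna4, Ifne, Ifnl2 and Ifnl3, 7 of the 8 listed, had no count in any library. Ifng was at 0.233 and 0.274 CPM on average in control and KO IELp, 12.3 in control CD8αα IEL and 6.54 in KO CD8αα splenocytes. It rose in control CD8αα IEL against control IELp (log2 5.85, edgeR adjusted p = 5.03e-08), and it was called higher in KO CD8αα splenocytes against KO IELp as well (log2 4.73). Ifng was lower in KO CD8αα splenocytes than in control CD8αα IEL (log2 -1.03, edgeR adjusted p = 2.14e-04).

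For the 4 members whose group means spanned at least 1 on the log2 scale, the 3 genes with the most similar course over the 12 libraries were found among 9442 genes, by the root mean square difference of log2(CPM + 1) after each gene was centred on its mean. Irf7 lay nearest Dhx58, an interferon-stimulated RNA helicase (0.12), H2-D1, a class I MHC heavy chain (0.12), and Nfkbid (0.14). Irf1 lay nearest H2-K1, another class I heavy chain (0.17), Herc3 (0.17) and Hrh2 (0.17). Irf8 lay nearest Nkg7, a granule gene of cytotoxic cells (0.17), Txk, a TEC-family kinase (0.20), and Cox6a2 (0.25). Nkg7 was at 341, 267, 1976 and 1042 CPM in control IELp, KO IELp, control CD8αα IEL and KO CD8αα splenocytes, the same order of groups as Irf8. Irf4 had no neighbour as near, with Osbpl9 at 0.47, Tstd3 at 0.48 and Sergef at 0.48. It had only 8 to 119 reads in a library, so counting noise adds to these values. They do not show that its course was unlike that of other genes.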

How the data were processed

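The data are 12 bulk RNA sequencing libraries. Per the labels' protocols, SMARTer Ultra Low Input reagent gave the cDNA, Nextera XT the libraries, and sequencing was paired-end at 76 bp. The submitters' processing notes name bcl2fastq 2.17, Trimmomatic, STAR, HTSeq, DESeq2 and mm10, but no annotation or strand option. The authors deposited counts per gene symbol, with 5 summary rows that held 58.8% to 61.0% of reads and were left out. The authors also deposited a table named FPM, which equals CPM over gene rows and gives the counts back within 8.12e-05.

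The deposited counts of each pair of groups (6 libraries) were tested with edgeR 4.0.16 in R 4.3.3 (quasi-likelihood test, filterByExpr, TMM, 2-sided, Benjamini-Hochberg adjustment over all genes, threshold 0.05), and the steps with an interaction term over 12 libraries. SEs are the log2 fold change over the square root of F. Printed CPM carry no TMM factors. Alternatives were other scalings, DESeq2 1.42.0, no filter, limma 3.58.1 on log2(FPM + 1) and log2(FPM + 0.1), 1 fit of all libraries, a replicate block and leaving out each library. Lengths and positions come from GENCODE M21, which held 95.5% of the symbols. The fit was tested on simulated data. Squared differences between replicates of a group were on average 4.30 to 18.2 times the sampling variance (chi-square per gene), so no library was counted as a duplicate.

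The members and lists were chosen with earlier results of these data known. Members were named by symbol; from each list, genes among the 4 with the smallest adjusted p were named, and, for likeness, the 3 nearest genes with at least 10 CPM in a group mean. Some list genes are not reported by name here. Counting intervals and floors cover counting error only.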

Additional observations from a re-analysis of the deposited data

Results flagged for a closer look

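The change from thymic precursor to CD8αα cell differed between the control and KO arms for 4 of the 8 genes, by the interaction term of edgeR over 12 libraries. Of all genes tested, 46.7% were called in this comparison, 24.2% higher and 22.5% lower in the KO arm. A call here is thus common among all genes. Irf2 rose by 0.86 on the log2 scale in the control arm and 0.31 in the KO arm, a difference of -0.58 (edgeR adjusted p = 2.62e-04). Irf8 rose by 2.92 and 2.45, a difference of -0.50 (edgeR adjusted p = 0.00540). Irf7 rose by 0.73 and 1.22, a difference of 0.47 (edgeR adjusted p = 0.00146), and Irf9 by 0.30 and 0.81, a difference of 0.48 (edgeR adjusted p = 0.00144). Each kept its direction and its call in 19 alternatives. For Irf7 the KO and control CD8αα groups overlapped while the precursor groups did not, and for Irf2 the precursor groups overlapped while the CD8αα groups did not. The KO CD8αα cells are splenocytes and the control CD8αα cells are IEL, so genotype and tissue cannot be told apart here.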

How the results depend on the processing

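Of 40 pairs of gene and comparison, 30 kept their side of the threshold in every alternative and 10 changed side in at least 1; no called value reversed. In KO against control IELp the count of IRF genes higher was 1 (Irf5) with no filter on low counts, and 0 to 1 without each library in turn (1 without control IELp replicate 2); over all genes, higher calls ranged from 591 to 871 and lower calls from 635 to 939 without each library, against 948 and 963, lowest without KO IELp replicate 2 (591 higher; 615 without KO IELp replicate 3) and control IELp replicate 2 (635 lower). From control IELp to control CD8αα IEL the count lower was 0 in 1 fit of all 12 libraries and 0 to 1 without each library (0 without control IELp replicate 2 or 3 or control CD8αα IEL replicate 2). Between the CD8αα groups the count higher was 1 to 2 without each library (1 without KO CD8αα splenocyte replicate 1). In the comparison of steps the count higher was 4 on total gene counts, 4 with limma on log2(FPM + 1) and 4 on log2(FPM + 0.1), and 2 to 4 without each library (4 without control IELp replicate 3). With the longest transcript as length, 3 genes kept their place in KO CD8αα splenocytes. The causes were not tested, apart from what the scaling or the smaller number of libraries sets.

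Same-numbered replicates did not deviate together in KO against control IELp (correlations -0.05, -0.01 and -0.04), and of the 12 pairs in the 4 comparisons 1 correlated above 0.1, so the numbers were not taken as pairs. With the replicate block the IELp comparison called 760 genes higher and 781 lower and 2 IRF genes lower, since Irf8 missed the threshold (adjusted p = 0.0667). Every library correlated best with its own number in no comparison (0, 4, 2 and 5 of 6 libraries did). Depth limits Irf4 most, with 8 to 119 reads in a library.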
